A study of Mus musculus with 18 samples.

Results

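Mouse epiblast stem cells (EpiSCs) were compared with naive embryonic stem cells (ESCs), the opposite ends of the naive to primed axis of pluripotency, by RNA sequencing (RNA-seq) of polyadenylated RNA from bulk cultures. The comparison took the 3 samples labelled EpiSC and the 3 labelled ESC, 6 of the 18 samples of the series, and covered all 35773 genes in the deposited tables. Both groups carry the same strain (129S2/SvPasCrl) and genotype (wild type) in their labels. The ESCs were grown in 2iL, a medium with inhibitors of MEK and GSK3 plus leukaemia inhibitory factor (LIF), whereas the labels give neither the medium nor the derivation of the EpiSCs. For the ESCs and EpiSCs of its quantitative PCR the study names a cross with GOF-GFP reporter males of mixed background, whereas the labels of the RNA-seq samples name the strain alone. The study calls its RNA-seq replicates biological. Neither its methods nor the labels say whether the 3 samples of a group were separate cultures or lines, so the tests measure the spread between these samples, which may be technical. The other 12 samples, all with the same strain and genotype labels, are advanced pluripotent stem cells (ASCs), ASCs converted from ESCs, ActA/bFGF stem cells (AFSCs) and epiblast-like cells (EpiLCs). The last 2 types, both post-implantation-like cultures, serve below as points of reference.

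Naive ESCs resemble the epiblast of the blastocyst before implantation. LIF acts through STAT3, and Wnt signalling relieves the repressor TCF7L1, to hold a circuit of transcription factors that includes ESRRB, KLF2, KLF4, TFCP2L1 and NANOG, while blockade of FGF and ERK signalling keeps differentiation in check. EpiSCs resemble the epiblast after implantation. They depend on activin or Nodal and FGF, have shut down most of the naive circuit while retaining OCT4, and express genes of the primitive streak, the structure from which mesoderm and endoderm arise.

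The EpiSC samples held between 6976376 and 9742624 counted fragments and the ESC samples between 4961934 and 8077252. Levels are given as normalized read counts per kb, that is fragment counts divided by a size factor for each sample and by the length of the gene. ESC replicate 1 was the shallowest library and stood apart from the other ESC libraries: 8.08% of its counts were mitochondrial, against 2.70% to 4.59% in the other 5 samples, and its correlation with ESC replicates 2 and 3 across genes (r of 0.9497 and 0.9484) was below that between any other pair within a group (0.974 to 0.978). Between the groups r was 0.693 to 0.713. Of 16901 genes that passed a filter on low counts, 3216 (19%) were higher in EpiSCs and 3713 (22%) were lower, at an adjusted p below 0.05 and a log2 fold change beyond 1 (edgeR quasi-likelihood test with Benjamini-Hochberg adjustment, used throughout). Without ESC replicate 1 these counts were 3326 and 3743. The median log2 fold change over all tested genes was -0.04. In bulk cultures, fewer cells of a type and less RNA per cell cannot be told apart.

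**Figure D1:**
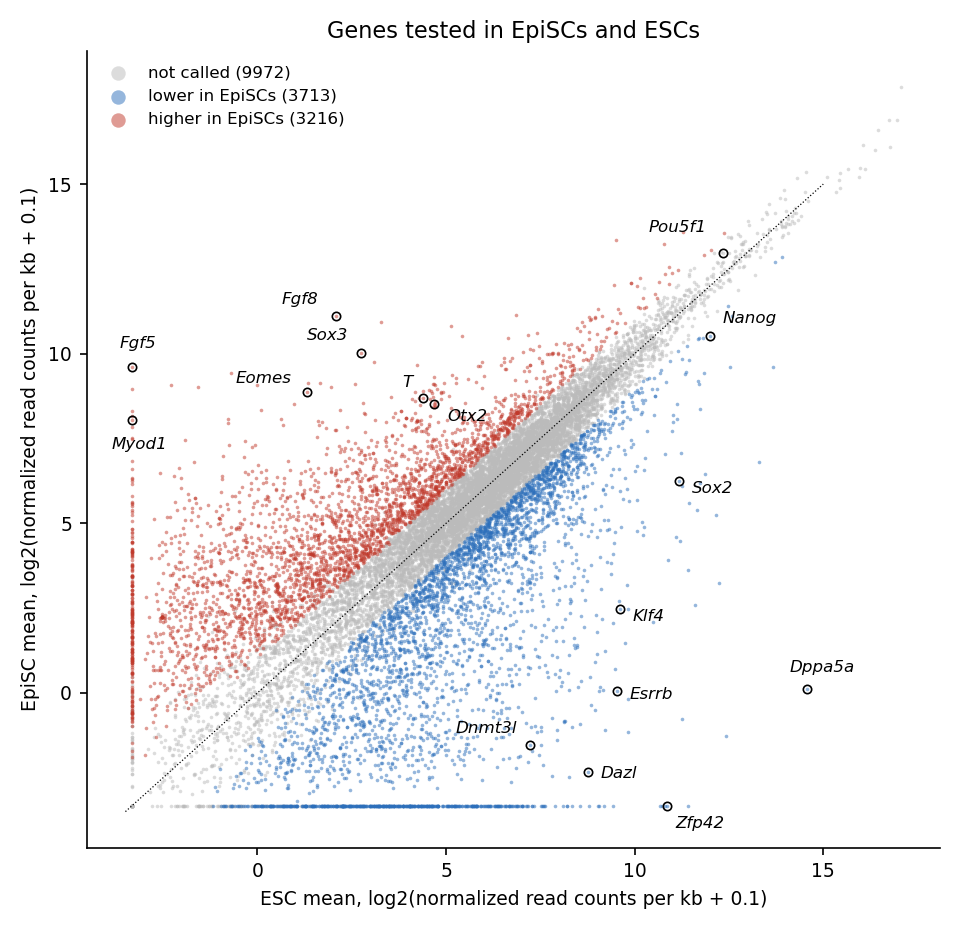
Mean level of each tested gene in ESCs (horizontal axis) and EpiSCs (vertical axis), as log2 of normalized read counts per kb plus 0.1, with each point 1 gene and the dotted line marking equal levels. Genes called higher in EpiSCs (3216) are red, those called lower (3713) are blue and the rest are grey, and the points on the lower and left borders are genes at 0 in all 3 samples of a group, among them Zfp42 in EpiSCs and Fgf5 and Myod1 in ESCs.

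The core pluripotency genes did not move together. Of 15 listed genes, 2 were higher in EpiSCs, 5 were lower and 8 were not called (median log2 fold change -0.30), near the 41% of all tested genes called in either direction. Pou5f1, which encodes OCT4, measured 5073, 5424 and 5159 normalized read counts per kb in the ESC samples and 8214, 7671 and 8381 in the EpiSC samples. All 3 EpiSC samples lay above all 3 ESC samples, as for 32.8% of all tested genes, and the log2 difference of 0.62 (SE 0.19, edgeR adjusted p = 0.00942) passed the threshold on adjusted p, as 61.2% of all tested genes did, but not that on fold change. Nanog was present at both ends, at 4967, 3671 and 3688 in ESCs and 1619, 1283 and 1534 in EpiSCs, and fell by 1.48 on the log2 scale (SE 0.16, edgeR adjusted p = 1.36e-07). Its EpiSC mean of 1479 was above the AFSC mean of 738 and the EpiLC mean of 220.1.

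Sox2 and its close relative Sox3 changed in opposite directions. Both encode SOXB1 transcription factors, and SOX2 is the partner of OCT4 on many enhancers of ESCs. Sox2 measured 2691, 2191 and 2107 in the ESC samples and 85.5, 67.3 and 75.6 in the EpiSC samples, a fall of 4.95 on the log2 scale (SE 0.22, edgeR adjusted p = 3.68e-13). Sox3 measured 6.67, 7.89 and 5.40 in ESCs and 977, 1104 and 1065 in EpiSCs, a rise of 7.28 (SE 0.23, edgeR adjusted p = 7.65e-15). For both genes the samples of the 2 groups were far apart, and the mean EpiSC level was 1049 for Sox3 and 76.1 for Sox2. In AFSCs the mean levels were 564 for Sox2 and 94.5 for Sox3, and in EpiLCs 442 and 358. Sox2 was lower in EpiSCs than in AFSCs (log2 difference -2.91, edgeR adjusted p = 1.29e-09) and than in EpiLCs (-2.56, edgeR adjusted p = 3.23e-09), comparisons in which 12.6% and 16.7% of all tested genes were lower in EpiSCs. The other core genes lower in EpiSCs than in ESCs included Dppa4 (239 to 2.80, log2 fold change -6.34) and Dppa2 (116 to 2.53, -5.45), neighbouring genes for chromatin proteins of early embryos. The 2 core genes that rose encode LIN28 proteins, which block maturation of let-7 microRNAs. Lin28a rose from 93.3 ± 19.5 to 858 ± 20.4 (SD, n = 3 per group) and Lin28b from 0.874 ± 0.152 to 81.0 ± 2.50. Of 10 tested genes of the LIN28 and oncofetal RNA-binding list, these 2 rose, Igf2bp2 fell (-1.13) and 7 were not called, Hmga2 among them (47.8 and 48.6). Over all tested genes 41% were called in either direction. Utf1, a chromatin-associated protein of pluripotent cells, was at 208 in ESCs and 171 in EpiSCs and was not called, whereas its mean was 2023 in AFSCs and 3824 in EpiLCs.

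**Figure D2:**
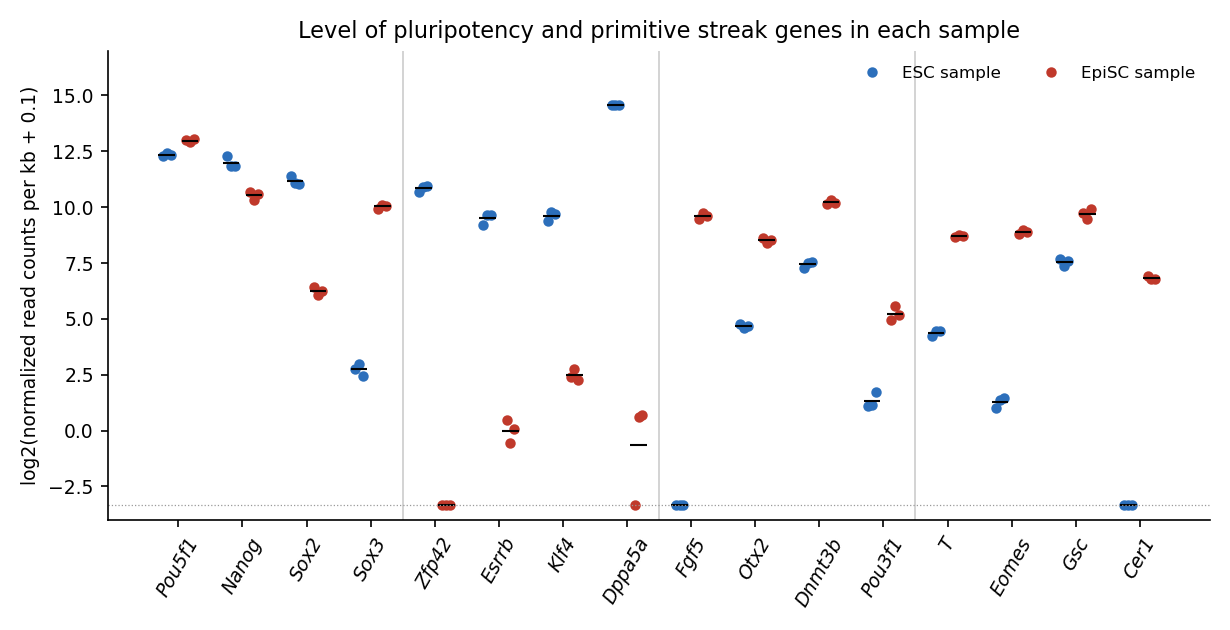
Level of 16 genes in each sample, as log2 of normalized read counts per kb plus 0.1, with blue points for the 3 ESC samples, red points for the 3 EpiSC samples and a bar at the mean of the plotted values. The dotted line marks a count of 0, and from left to right the blocks hold core, naive, formative or primed, and primitive streak or endoderm genes. Sox2 and Sox3 cross over, the 4 naive genes lie far lower in EpiSCs, and the groups overlap for none of the 16 genes. Over all tested genes, 32.8% had every EpiSC sample above every ESC sample and 34% had every one below.

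Naive transcription factors were lower in EpiSCs almost throughout. Of 21 listed genes, 19 were lower, none was higher, and Hif1an and Tfe3 were not called. The median log2 fold change was -6.51, beside -0.04 over all tested genes, of which 22% were lower. Zfp42, which encodes REX1, measured 1652, 1934 and 1961 in ESCs and had no count in any EpiSC sample, at least 3473-fold lower when a floor of 3 counts over the EpiSC libraries is assumed. Tcl1, a coactivator of AKT, and the orphan receptor gene Nr0b1 were likewise at 0 in all 3 EpiSC samples, at least 826-fold and 676-fold lower. Other factors of the list kept low counts. Esrrb, an orphan nuclear receptor gene, measured 596, 802 and 806 in ESCs and 1.30, 0.583 and 0.947 in EpiSCs (log2 fold change -9.65, SE 0.34). Tfcp2l1 went from 709.8 to 1.52 (-8.85) and Nr5a2 from 183 to 0.356 (-8.98). Prdm14, which restrains FGF signalling and DNA methylation in naive cells, totalled 3 counts or fewer in EpiSCs, and the ratio of ESC to EpiSC was 421 (95% counting interval 144 to 2043). Among the Kruppel-like factors, Klf4 fell from 786 to 5.50 (-7.15), Klf2 from 1904 to 14.9 (-7.00) and Klf5 from 312 to 5.03 (-5.90). The smallest called changes of the list included Nanog and Sp5, a direct Wnt target (522 to 190, -1.47).

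The second naive list, of surface, metabolic and maternal-effect markers, behaved in the same manner, with 24 of 25 genes lower, beside 22% of all tested genes. The median log2 fold change was -6.17, and Zfp352, seen as a single count, was not called. Dppa5a, which encodes an RNA-binding protein of pluripotent cells, was one of the most abundant transcripts of ESCs at 24230, 24120 and 24130, and gave 2 counts in all EpiSC libraries together, a ratio of 22000 (95% counting interval 6091 to 181700). Dppa3 (Stella), a maternal protector of DNA methylation, measured 3580, 1992 and 1743 in ESCs and 1 count in EpiSCs, a ratio of 5909 (95% counting interval 1060 to 233500). It was highest in ESC replicate 1. Tdh, the threonine dehydrogenase that feeds one-carbon metabolism in mouse ESCs, fell from 2356 ± 299 to 22.3 ± 3.83 (SD, n = 3 per group), and Fgf4, the autocrine FGF ligand of ESCs, from 668 ± 59.6 to 14.2 ± 2.35. Ranked by log2 fold change, the 15 lowest genes of the whole comparison that passed the rule for level and non-overlap held members of both naive lists and genes outside them. Calcoco2, an autophagy receptor, measured 2860, 2787 and 2559 in ESCs and 0 in every EpiSC sample (at least 4316-fold lower), and the testis ribosomal protein gene Rpl10l (at least 1728-fold), Trim25, a ubiquitin ligase (1150-fold), Aqp3, a glycerol and water channel (1055-fold), and Crxos, a homeobox gene (1414-fold), were also at 0 there.

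Genes of the formative and primed epiblast moved the other way. Of 31 tested genes 27 were higher in EpiSCs, beside 19% of all tested genes, 1 was lower and 3 were not called (Nkx1-2, Lef1 and Grhl2, the last of which passed without EpiSC replicate 3 or ESC replicate 3, at log2 fold changes of 1.05 and 1.16). The median log2 fold change was 3.22. Fgf5, the standard marker of the post-implantation epiblast, had no count in any ESC sample and measured 708, 864 and 779 in the EpiSC samples, at least 1497-fold higher. It had the highest log2 fold change among genes that passed the rule for level and non-overlap. Otx2, a homeobox factor of the formative transition, rose from 25.7 ± 1.64 to 365 ± 26.4 and Zic2, a zinc finger factor that acts with it at enhancers, from 61.4 ± 1.08 to 856 ± 29.6 (SD, n = 3 per group). Their log2 fold changes were 3.82 (SE 0.15) and 3.79 (SE 0.14). The de novo DNA methyltransferase gene Dnmt3b rose from 176 to 1188 (2.74) and Dnmt3a from 7.13 to 55.0 (2.92). Large rises were also seen for Epha1, an ephrin receptor (2.95 to 256, 6.52), Pim2, a survival kinase (42.9 to 1457, 5.05), and the SOXC genes Sox11 (4.32) and Sox4 (3.79). The member that fell was Dnmt3l, the catalytically inactive cofactor of these methyltransferases. It measured 103, 180.3 and 169 in ESCs and 0.439, 0.295 and 0 in EpiSCs, 2 counts in all, a ratio of 697 (95% counting interval 192 to 5759). Its mean was 2.48 in AFSCs and 409 in EpiLCs, and EpiSCs were lower than both (edgeR adjusted p = 0.00247 and 1.31e-13). Pou3f1 (OCT6), which marks the early post-implantation epiblast, was also higher in EpiSCs than in ESCs (2.45 to 37.7, 3.89), but its mean was 239.6 in AFSCs and 662 in EpiLCs, and EpiSCs were lower than both (log2 differences -2.67 and -4.14, edgeR adjusted p = 7.46e-10 and 2.07e-12).

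**Figure D3:**
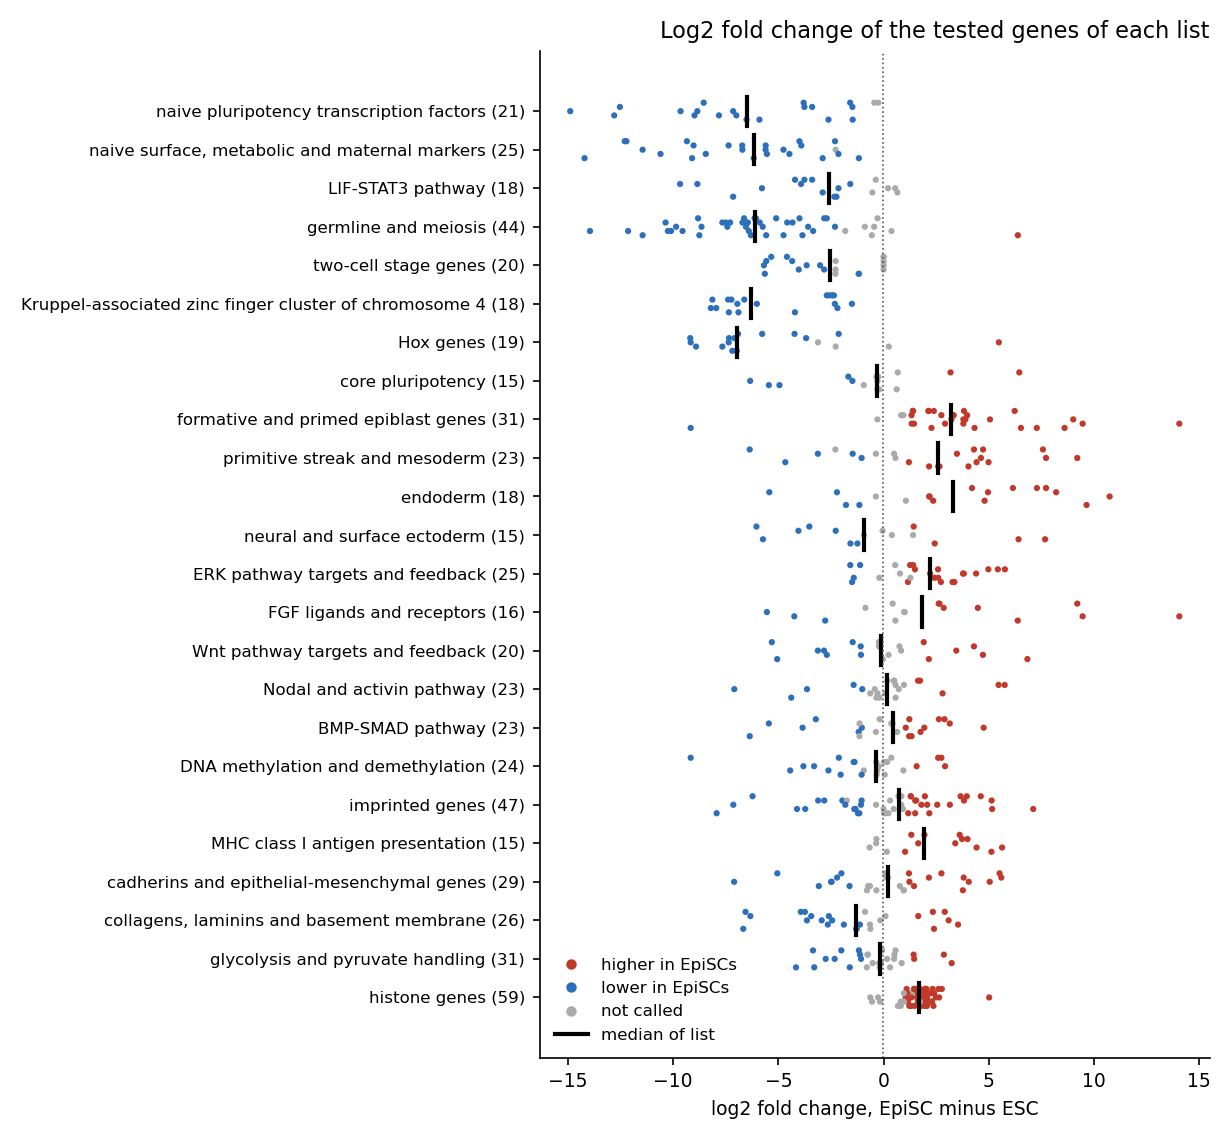
Log2 fold change (EpiSC minus ESC, horizontal axis) of every tested gene of 24 gene lists, with the number tested in parentheses. Each point is 1 gene, red where called higher in EpiSCs, blue where called lower and grey otherwise, black bars mark the median of each list and the dotted line the median of all tested genes. Points of the naive, germline and zinc finger cluster lists lie mostly below 0 and those of the formative and histone lists mostly above it. Fitted values of genes with no count in 1 group depend on the prior count of the fit and are not bounds.

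Lineage genes were called in both directions. Of 23 tested primitive streak and mesoderm genes 14 were higher in EpiSCs and 5 were lower, beside 19% and 22% of all tested genes. The median log2 fold change was 2.60, and 7 further genes of the list had too few counts for the test. Fgf8, an FGF ligand of the streak, measured 7.29, 3.45 and 1.65 in ESCs and 2466, 1884 and 2284 in EpiSCs (log2 fold change 9.20, SE 0.36). Eomes, a T-box factor of the anterior streak, rose from 2.37 ± 0.417 to 472 ± 27.6, and T (brachyury) from 20.8 ± 1.86 to 417 ± 14.3 (SD, n = 3 per group). Mixl1, a homeobox gene of mesendoderm, rose from 2.23 to 63.0 (4.73) and Wnt3, the ligand that initiates the streak, from 4.47 to 136 (4.99). Gsc, the organizer homeobox gene, was already present in ESCs at 208, 166 and 190 and measured 852, 709.6 and 974 in EpiSCs (2.16, SE 0.19). Its mean was 48.0 in AFSCs and 4.11 in EpiLCs, and EpiSCs were above both (log2 differences 4.12 and 7.66, edgeR adjusted p = 3.11e-11 and 1.81e-13), as were 8.19% of all tested genes against AFSCs and 11.9% against EpiLCs. The members that fell were the caudal homeobox genes Cdx2 (-4.67) and Cdx1 (-3.12), the haematopoietic factor Gata2 (ratio of ESC to EpiSC 98.2 (95% counting interval 26.7 to 818)), Sp5 and the VEGF receptor gene Kdr (-1.04). The call on Kdr was lost without any single EpiSC library (-1.16 to -0.97) or without ESC replicate 1 (-0.76), and also with DESeq2 (adjusted p = 0.071) and with no filter on low counts (edgeR adjusted p = 0.0706).

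Endoderm genes were also mostly higher, with 12 of 18 tested genes higher in EpiSCs and 4 lower. Over all tested genes 19% were higher and 22% lower, and the median log2 fold change of the list was 3.28. Cer1, which encodes a secreted inhibitor of Nodal, BMP and Wnt, had no count in ESCs and measured 119, 112 and 110.3 in EpiSCs, at least 148-fold higher. Foxa2, a forkhead factor of definitive endoderm and axial mesoderm, rose from 0.798 ± 0.724 to 153 ± 8.57, and Sox17, an endoderm determinant, from 0.403 ± 0.509 to 34.6 ± 2.76 (SD, n = 3 per group). Sox17 and Cer1 were also above their AFSC means of 1.51 and 6.50 (log2 differences 4.51 and 4.07, edgeR adjusted p = 4.78e-09 and 1.72e-07). The 4 endoderm genes that fell were Hnf4a, Epha4, Gata4 and Dab2, of which Hnf4a had no count in EpiSCs, Gata4 went from 5.03 to 1.53, and the log2 fold change of Dab2 (-1.15) was -0.79, within the fold threshold, without ESC replicate 1. Gata6 rose from 1.54 to 26.5. Neural and surface ectoderm genes showed no single direction (4 higher, 7 lower and 4 not called of 15 tested, median log2 fold change -0.93). Nes, an intermediate filament gene of neural progenitors, rose from 31.9 to 175 and Irx3, a neural plate homeobox gene, from 0.788 to 72.2, whereas Tfap2a and Grhl3, factors of surface ectoderm, fell by 5.73 and 3.53 on the log2 scale.

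Markers of other cell types were summed in each sample to describe what else the cultures could hold. The 15 fibroblast feeder markers summed to between 97.5 and 150 normalized read counts per kb in ESCs and between 111 and 118 in EpiSCs, beside 1141 to 1832 in AFSCs. Of 11 tested, 4 were higher in EpiSCs and 5 lower, beside 19% and 22% of all tested genes. Dcn and Lum of this list had no count in any EpiSC sample. The 12 primitive and visceral endoderm markers, which include Gata6 and Sox17, summed to 12.4 to 23.2 in ESCs and 73.0 to 76.3 in EpiSCs (4 of 8 tested higher, 3 lower). Of this list, Ttr, Afp and Hnf4a were at 0 in all EpiSC samples, whereas Gata6 and Sox17 rose. The 12 trophoblast markers summed to 389 to 402 in ESCs and 490 to 539 in EpiSCs, where Eomes made up most of the sum, with 2 of 8 tested higher and 5 lower and the giant cell gene Prl3d1 at 0. The 12 neural progenitor markers summed to 592 to 648 and 612 to 704 (4 of 8 tested higher, 2 lower), and the ranges overlapped. The part of these cell types in the gene lists above was not tested beyond these values.

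Signalling genes differed by pathway. Of 25 ERK targets and feedback inhibitors, 17 were higher in EpiSCs and 4 were lower, beside 19% and 22% of all tested genes. The median log2 fold change was 2.21. The immediate-early gene Egr1 measured 7.03, 7.79 and 5.72 in ESCs and 411, 327 and 387 in EpiSCs (log2 fold change 5.76, SE 0.16), and Fos rose from 5.13 ± 1.56 to 230.4 ± 29.5 (SD, n = 3 per group). Among the feedback inhibitors, Dusp6, an ERK phosphatase gene, rose from 18.8 to 259 (3.81) and Spry4 from 1.06 to 24.9 (4.39). Myc, a growth regulator downstream of ERK, rose from 8.63 to 119.5 (3.77). The 4 that fell were Ier3 (-1.58), Dusp1 (-1.50), the ETS factor Etv5 (841 to 317, -1.42) and Ccnd1 (-1.11), while Etv4, its paralogue, rose (1.40). The MEK inhibitor of 2iL was present in the ESC cultures and the medium of the EpiSCs is not in the labels, so medium and cell type cannot be told apart in this comparison. FGF ligands and receptors divided. Of 16 genes 8 were higher and 3 lower in EpiSCs, beside 19% and 22% of all tested genes (median log2 fold change 1.81). The ligand genes Fgf5, Fgf8, Fgf15, Fgf17 and Fgf18 rose, and Fgf4 and Fgf10 fell. Fgfr1, the main receptor gene of the epiblast, was at 119 and 176 and was not called. Fgf15, at 0.892 in ESCs, reached 544 in EpiSCs, beside 27.9 in AFSCs and 141 in EpiLCs.

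No gene of the LIF and STAT3 list was higher in EpiSCs, 13 of 18 were lower and 5 were not called. Over all tested genes 19% were higher and 22% lower, and the median log2 fold change of the list was -2.62. Lifr and Il6st, the receptor genes, fell by 2.90 and 2.14 on the log2 scale, and Stat3 from 99.5 to 9.50 (-3.40). Socs3, the feedback inhibitor induced by STAT3, measured 386, 393 and 365 in ESCs and 28.1, 26.8 and 21.1 in EpiSCs (-3.92, SE 0.16). Bcl3, a nuclear IκB protein gene, was at 372 in ESCs and had 3 counts in all EpiSC libraries together, a ratio of 904 (95% counting interval 309 to 4385). The kinase genes Pim1 (919 to 49.9, -4.21) and Pim3 (-2.24) fell while Pim2, of the formative list, rose. Cntfr, the receptor subunit for another ligand of this cytokine family, was among the 15 genes with the highest log2 fold changes, with 1 count in ESCs and 551, 490.4 and 525 in EpiSCs, a ratio of 3265 (95% counting interval 586 to 129000).

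Wnt targets and feedback genes showed 6 higher and 8 lower of 20 tested, beside 19% and 22% of all tested genes. Their median log2 fold change was -0.13. Notum, a secreted Wnt deacylase gene, fell from 538 ± 103 to 16.1 ± 1.18 (SD, n = 3 per group) and Rnf43, a ligase gene that removes Wnt receptors, by 2.83 on the log2 scale. Axin2, the general feedback gene of the pathway, measured 185, 226 and 216 in ESCs and 98.9, 103 and 98.0 in EpiSCs (-1.08), close to the fold threshold. The members that rose included T, Dkk1 (2.15), Nkd1 (3.45) and the cyclin gene Ccnd2 (4.72). Nodal and activin genes also went both ways, 5 higher and 5 lower with 13 of 23 not called (median log2 fold change 0.18), near the 19% and 22% of all tested genes. Nodal itself was at 272 and 404 and was not called. Of the secreted antagonists, Lefty1 rose from 159 to 1107 (2.80) and Lefty2 fell from 406 to 32.6 (-3.64), a divergence within 1 gene pair. Fst, the activin-binding follistatin gene, rose from 18.7 to 813 (5.46). Gdf3, a Nodal-related ligand gene of ESCs, fell from 352 to 2.57 (-7.10). In the BMP and SMAD list 10 of 23 tested genes were higher and 6 lower, beside the same 19% and 22% (median log2 fold change 0.43). The ligand gene Bmp2 (0.474 to 11.1), the effector gene Smad1 (15.8 to 118) and the target genes Id1 (1.75) and Id3 (1.94) rose, Id4 fell (-3.85) and Id2 was not called (143 and 127).

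**Figure D4:**
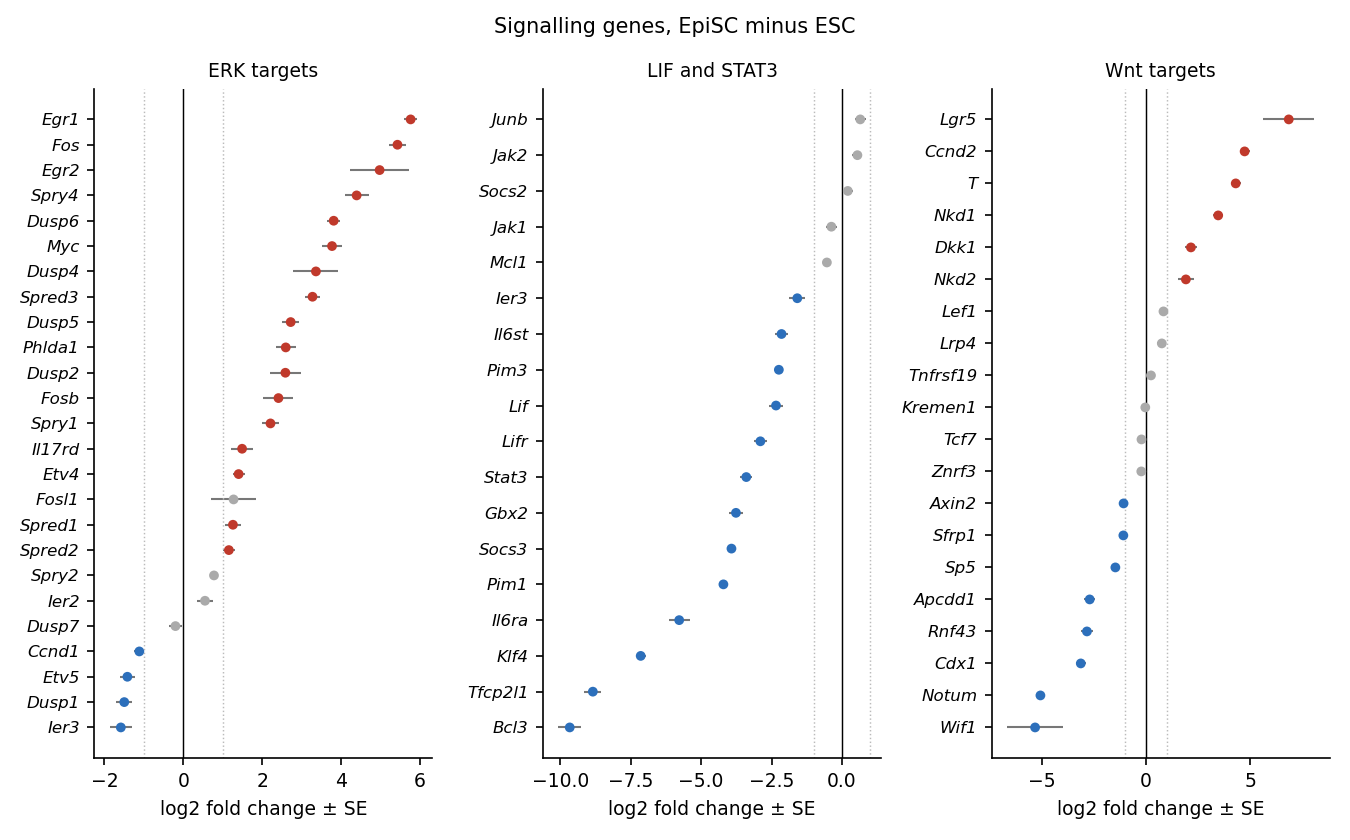
Log2 fold change (EpiSC minus ESC) with its standard error for the tested genes of the ERK, LIF and STAT3, and Wnt lists, 1 gene in each line and sorted by value. Red points are genes called higher in EpiSCs, blue points genes called lower, grey points genes not called, and dotted lines mark log2 fold changes of -1 and 1. Of 25 ERK genes 17 are red, of 18 LIF and STAT3 genes 13 are blue and none is red, and the 20 Wnt genes fall on both sides.

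Genes of DNA methylation and demethylation were called in both directions. Beside the rise of Dnmt3a and Dnmt3b and the fall of Dnmt3l, the dioxygenase genes Tet1 (126 to 30.8, -2.04) and Tet2 (51.0 to 2.37, -4.44) fell and Tet3 rose (2.54 to 15.6, 2.59). Uhrf1, which guides maintenance methylation, fell by 1.04 on the log2 scale and its paralogue Uhrf2 rose (1.57), while Dnmt1 was not called (-0.33). Uhrf1 sat at the fold threshold, and without EpiSC replicate 1 or 3 (-0.96 and -0.99) or ESC replicate 2 or 3 (-0.94 and -0.96) its call was lost. Over the list 4 of 24 tested genes were higher and 10 lower, beside 19% and 22% of all tested genes.

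Germline and meiosis genes, many of which carry promoters known to be silenced by DNA methylation and by the repressor complex of E2F6 and MGA, were lower in EpiSCs in 37 of 44 tested cases, beside 22% of all tested genes, with 1 higher and 6 not called. The median log2 fold change was -6.10, or -4.67 with genes at 0 in 1 group placed at their bound, and 14 genes had no count in any EpiSC sample. Those 14 passed the filter on counts in other groups and could not be called higher. Dazl, an RNA-binding protein gene of germ cells, measured 576, 361 and 359.8 in ESCs and 0, 0.300 and 0 in EpiSCs, a ratio of 3541 (95% counting interval 635 to 139900). Fkbp6, a co-chaperone gene of the piRNA pathway, went from 295 ± 3.47 to 0, and Hormad1, a gene of the meiotic chromosome axis, from 120.3 ± 56.6 to 0.170. The exception was Tdrkh, a tudor-domain gene of the piRNA pathway, which rose from 0.401 to 32.0 (6.38). To show the regulatory sequence of these genes, the 250 bases before the start of each gene in the RefSeq table (build GRCm38.p6) were searched on both strands for the E-box CACGTG, which reads the same on both strands, and for the E2F-type hexamer TCCCGC, which reads GCGGGA on the other. A match of one can overlap a match of the other by 1 base at most. Of the 37 genes called lower, 32 had an entry, and of all 16901 tested genes 11849 (70.1%) had one, so the shares over all genes describe only those with an entry. CACGTG was in 11 of the 32 (34.4%) and in 991 of the 11849 (8.36%), TCCCGC or GCGGGA was in 12 (37.5%) and in 29.7%, and both were in 4 (12.5%) and in 2.75%. A match describes the letters in this window only, and shares over germline genes not called lower were not taken. The RefSeq start could lie away from the counted start of a gene. The gap was 1869 bases for Meioc, which held a TCCCGC or GCGGGA match, and 8665 for Nanos3, which held no match. The 4 with both are printed 5′ to 3′ in the direction of the gene, with the matched hexamers in capitals. They are Hormad1 (chr3:95559427-95559676, plus strand), Ddx4, an RNA helicase gene of germ cells (6.58 in ESCs and 0 in EpiSCs, chr13:112652311-112652560, minus strand), Mael, a piRNA pathway gene (4.16 and 0.170, chr1:166238745-166238994, minus strand), and Sycp3, a gene of the synaptonemal complex (60.7 and 11.9, chr10:88459337-88459586, plus strand).

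The upstream sequences of the 4 germline genes were as follows.
Hormad1: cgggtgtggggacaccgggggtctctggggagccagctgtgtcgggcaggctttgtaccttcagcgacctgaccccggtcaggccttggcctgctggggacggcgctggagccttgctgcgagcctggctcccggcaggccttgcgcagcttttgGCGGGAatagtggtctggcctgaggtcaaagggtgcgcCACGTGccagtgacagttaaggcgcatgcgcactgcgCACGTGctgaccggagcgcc
Ddx4: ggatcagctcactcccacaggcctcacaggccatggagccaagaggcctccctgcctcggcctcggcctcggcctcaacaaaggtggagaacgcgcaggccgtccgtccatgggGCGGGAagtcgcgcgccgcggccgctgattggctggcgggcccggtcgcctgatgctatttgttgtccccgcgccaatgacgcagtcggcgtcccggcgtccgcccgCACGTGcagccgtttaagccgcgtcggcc
Mael: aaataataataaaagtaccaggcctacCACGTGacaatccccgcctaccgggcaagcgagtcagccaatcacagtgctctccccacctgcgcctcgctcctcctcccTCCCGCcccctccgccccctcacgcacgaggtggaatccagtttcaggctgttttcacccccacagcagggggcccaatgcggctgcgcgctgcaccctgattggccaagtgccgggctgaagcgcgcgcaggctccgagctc
Sycp3: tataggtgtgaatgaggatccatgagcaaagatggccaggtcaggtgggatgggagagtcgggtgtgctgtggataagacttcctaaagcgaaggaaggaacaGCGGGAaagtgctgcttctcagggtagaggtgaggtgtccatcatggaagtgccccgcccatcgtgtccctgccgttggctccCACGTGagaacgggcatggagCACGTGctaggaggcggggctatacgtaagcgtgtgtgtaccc

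The 4 genes differed in how much RNA they kept. Sycp3 measured 103, 37.8 and 41.5 in ESCs and 14.5, 10.5 and 10.6 in EpiSCs (-2.31, SE 0.43), while Hormad1, Ddx4 and Mael had at most 1 count in all EpiSC libraries together. All 4 had no overlap between the groups, as did 34% of all tested genes in this direction. Of 20 tested genes of the 2-cell stage, 11 were lower in EpiSCs, beside 22% of all tested genes, and none was higher. Their median was -2.56, or -1.75 at the bounds, but their ESC levels were low. Zscan4c, the best known of them, was at 9.69 in ESCs and 0.140 in EpiSCs. Several genes of this list, such as the Zscan4 family, are near-identical copies and share reads. Of the 20 tested, 14 had no count in any EpiSC sample and 5 had none in any ESC sample. Those at 0 in EpiSCs passed the filter on counts in other groups and could not be called higher. All 18 genes of the Kruppel-associated zinc finger cluster of chromosome 4, whose products silence transposable elements, were lower in EpiSCs, with log2 fold changes from -8.21 (Zfp989) to -1.51 (Zfp984) and a median of -6.32. They are paralogues, their reads can be shared between copies, and Zfp989 was highest in ESC replicate 1 (436, 255 and 234 in the ESC samples).

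The summed counts over the hairpin genes of 2 microRNA clusters differed in opposite directions. The miR-290 cluster and the miR-302 cluster encode microRNAs of pluripotent cells that promote the fast cell cycle, and several share a seed, the bases 2 to 8 that select targets. Mature sequences from RefSeq (GRCm38.p6) of the 5 members found there with the seed AAGUGCU follow, with the seed in capitals. The first 3 belong to the miR-290 cluster on chromosome 7 and the last 2 to the miR-302 cluster on chromosome 3. Sequences of mmu-miR-302a-3p and mmu-miR-292a-3p were lacking, so their seeds could not be examined and the set may be incomplete.

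The 5 mature microRNAs found with this seed were as follows.
mmu-miR-291a-3p: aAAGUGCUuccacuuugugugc
mmu-miR-294-3p: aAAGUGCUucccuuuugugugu
mmu-miR-295-3p: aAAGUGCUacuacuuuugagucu
mmu-miR-302b-3p: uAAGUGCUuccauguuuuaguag
mmu-miR-302d-3p: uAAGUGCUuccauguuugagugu

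Summed over 9 hairpin genes, the miR-290 cluster had 160, 138 and 178 fragment counts in the ESC samples and 9, 9 and 8 in the EpiSC samples. Summed over 5 hairpin genes, the miR-302 cluster had 0 counts in every ESC sample and 27, 35 and 21 in the EpiSC samples. The groups did not overlap for either cluster, and the direction was opposite. Of all tested genes, 34% had no overlap in the direction of miR-290 and 32.8% in that of miR-302. In AFSCs the sums were 76, 29 and 66 for miR-290 and 12, 26 and 27 for miR-302, and in EpiLCs they were 64, 90 and 48 and 1, 9 and 3. The libraries were made from polyadenylated RNA, so these fragments come from long transcripts over the hairpins and do not measure the mature microRNAs. Of the hairpin genes 6 had enough counts for the test, and all 6 were miR-290 members and lower in EpiSCs. None of the 5 miR-302 hairpin genes was tested, so the opposite direction rests on the summed counts alone. Even summed, the miR-290 counts of the EpiSC samples (9, 9 and 8) were below the count minimum of the filter. The 6 genes therefore passed the filter on counts in other groups, and their shared direction adds no separate support.

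Imprinted genes were called in both directions, 19 higher and 15 lower of 47 tested, beside 19% and 22% of all tested genes. The median log2 fold change was 0.71. Cdkn1c, a growth inhibitor gene expressed from the maternal allele, measured 11.6, 17.1 and 8.21 in ESCs and 319.9, 294 and 308 in EpiSCs (4.62, SE 0.26). Igf2, the paternally expressed growth factor gene, rose from 1.27 to 39.4, Grb10 by 3.95 on the log2 scale and Dlk1 by 5.16. Gnas rose from 99.1 to 1403, but it overlaps Gm20721, which was counted from the same fragments. H19, the non-coding neighbour of Igf2, fell from 12.3 to 1.66 (-3.11), Plagl1 from 184 to 10.7 (-4.11) and the antisense transcript Kcnq1ot1 to 3 counts in all EpiSC libraries (ratio of ESC to EpiSC 136 (95% counting interval 46.2 to 664)). Reads were counted without strand, so Kcnq1ot1 and the gene it overlaps cannot be told apart. Allele-specific expression was not measured.

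MHC class I and its peptide supply were higher in EpiSCs in 11 of 15 tested genes and lower in none. Over all tested genes 19% were higher and 22% lower, and the median log2 fold change of the list was 1.94. H2-K1, a classical class I heavy chain gene, measured 23.4, 18.3 and 18.4 in ESCs and 255, 226 and 251 in EpiSCs (3.61, SE 0.21). Psmb8, an immunoproteasome subunit gene, rose from 0.512 to 26.2, with 3 counts in all ESC libraries (ratio of EpiSC to ESC 54.6 (95% counting interval 18.4 to 267)), the peptide transporter gene Tap1 by 3.40 on the log2 scale, the trimming peptidase gene Erap1 by 4.42, and the light chain gene B2m by 1.32. H2 genes are paralogues and can share reads.

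Adhesion genes showed both directions. Among 29 cadherins and epithelial-mesenchymal genes 11 were higher and 8 lower, beside 19% and 22% of all tested genes (median 0.21). Cdh1, which encodes E-cadherin, measured 1250, 789 and 844 in ESCs and 170.1, 178 and 174 in EpiSCs (-2.47, SE 0.24), and Cdh2, which encodes N-cadherin, 4.15, 2.45 and 2.63 and 49.1, 51.5 and 47.7 (4.05, SE 0.31). The groups did not overlap for either gene, as for 34% of all tested genes in the direction of Cdh1 and 32.8% in that of Cdh2. The mean Cdh1 level in EpiSCs (174) was still above that of Cdh2 (49.4). The epithelial keratin genes Krt8 (2.75) and Krt18 (3.81) and the epithelial splicing regulator gene Esrp1 (5.59) rose together with Zeb2 (5.04), a repressor of Cdh1, whereas Epcam and Vim were not called. Of 26 collagen, laminin and basement membrane genes 15 were lower and 6 higher, beside 22% and 19% of all tested genes (median -1.29). Lama1, the laminin chain gene of the embryonic basement membrane, fell from 145 ± 27.9 to 1.36 ± 0.561 and Nid1, a laminin-binding protein gene, by 6.33 on the log2 scale, while the type IV collagen genes Col4a1 (2.34) and Col4a2 (1.65) rose. Fn1, which encodes fibronectin, fell from 696 to 21.1 (-5.05).

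Metabolic genes were called in both directions. Of 31 glycolysis genes 4 were higher and 10 lower with a median of -0.19, near the 41% of all tested genes called in either direction. Of the lactate dehydrogenase genes, Ldhb fell from 3387 ± 322 to 334 ± 8.57 and Ldha rose from 1613 ± 500.1 to 4457 ± 589 (SD, n = 3 per group). Hk1 and Hk2, the hexokinase genes, fell by 4.16 and 2.01 on the log2 scale, and Slc16a3, a lactate exporter gene, rose by 2.86. Among 95 nuclear genes of oxidative phosphorylation, 1 was higher, 5 were lower and 89 were not called (median 0.07), far fewer calls than the 41% over all tested genes. In one-carbon metabolism 7 of 24 genes were lower and 3 higher, again near 41% in all. Beside Tdh, the lower genes included Nnmt, which consumes the methyl donor S-adenosylmethionine (50.0 to 0, at least 76.3-fold lower), and the glycine cleavage genes Amt (-4.05) and Gldc (-1.18). By the difference in library-scaled counts, the largest falls outside the naive lists included Ckb, the brain-type creatine kinase gene (12900 to 772), and Mt2, a metallothionein gene (14920, 7553 and 7782 in ESCs and 132, 80.9 and 120.1 in EpiSCs), and the largest rises included Igfbp2 (2036 to 5335) and Ppp1r14b (2510 to 12190). Mt2 was highest in ESC replicate 1.

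Xist, the RNA that coats the inactive X chromosome, measured 10.8, 4.74 and 4.29 in ESCs and 144, 138 and 132 in EpiSCs (4.43, SE 0.36, edgeR adjusted p = 4.58e-09). Its mean was 234 in AFSCs and 6.36 in EpiLCs. Counting ignored strand, so fragments from Xist and from its antisense partner Tsix (21.7 and 17.1, not called) cannot be told apart where they overlap. The neighbouring non-coding genes Ftx (3.38) and Jpx (1 count in all ESC libraries, ratio of EpiSC to ESC 43.8 (95% counting interval 7.55 to 1761)) rose as well, and the 14 other tested genes of the Y-linked and X-inactivation list were not called. The Y-linked genes Kdm5d, Ddx3y, Uty and Eif2s3y were at means of at most 0.646 in either group, and Eif2s3y passed the test without EpiSC replicate 3 (2.54) or ESC replicate 1 (4.66). Over 641 tested X-linked genes 159 (24.8%) were higher and 175 (27.3%) lower, beside 19% and 22% of all tested genes. The median log2 fold change of X-linked genes exceeded that of autosomal genes by 0.08. This difference was between 0.03 (without ESC replicate 3) and 0.10 (without ESC replicate 1) when a single library was left out. Of the 641 genes, 90 had no count in any EpiSC sample and 14 had none in any ESC sample. Over 308 X-linked genes with at least 20 counts in every sample, the median log2 difference from the ESC mean was also taken. Minus that of the autosomes, it was 0.21, 0.15 and 0.19 in the EpiSC samples and 0.09, -0.04 and -0.04 in the ESC samples.

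Chromosome 12 stood apart from the other autosomes by its median log2 fold change. Of its 591 tested genes 33.2% were higher in EpiSCs and 13.5% lower, beside 19% and 22% of all tested genes, and its median log2 fold change was 0.59. Chromosome 14, which holds a block of paralogous genes described below, came near it in the share called higher. There 31.4% were higher and 18.9% lower, with a median log2 fold change of 0.21. For each sample, the median log2 difference from the ESC mean over the genes of a chromosome, minus that over the other autosomes, was taken over 9706 genes with at least 20 counts in every sample. For chromosome 12 it was between 0.61 and 0.67 in the 3 EpiSC samples and between -0.07 and 0.03 in the ESC samples, with a highest value of 0.25 among the 15 samples that are not EpiSCs. The other 18 autosomes ranged from -0.12 to 0.20 in EpiSCs. An exact permutation test of the 3 EpiSC against the 3 ESC values of chromosome 12 gave p = 0.1, the lowest it can give with 3 samples per group. Chromosome 12 was singled out after these values were seen, so this test cannot serve as support for the difference. Along the chromosome, the 12 bins of 10 Mb had median log2 fold changes from 0.01 to 0.97. In the comparisons of EpiSCs with AFSCs and with EpiLCs, the chromosome 12 median exceeded that of the other autosomes by 0.42 and 0.53. Values given above for single genes of this chromosome were not adjusted for these differences. DNA copy number was not measured here.

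**Figure D5:**
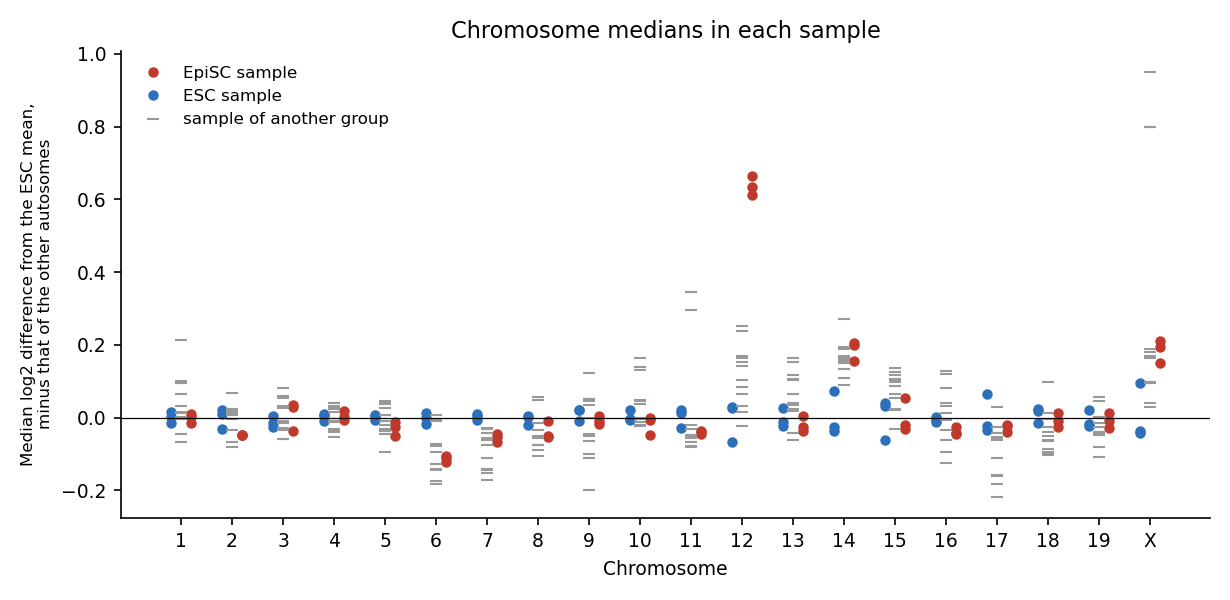
Median log2 difference from the ESC mean for the genes of each chromosome, minus that of the other autosomes (vertical axis), in each sample. Red points are the 3 EpiSC samples, blue points the 3 ESC samples and grey dashes the 12 samples of the other groups. Chromosome 12 lies between 0.61 and 0.67 in the EpiSC samples, and the other autosomes lie between -0.12 and 0.20 there.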

How the data were processed

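RNA-seq libraries of polyadenylated RNA were made by the authors with a directional kit from 18 mouse cell samples and sequenced on a HiSeq4000. Reads were aligned with TopHat2 to GRCm38 guided by Ensembl release 86 annotation, and featureCounts 1.5.0-p1 assigned fragments to genes without regard to strand. A fragment that overlapped several genes by at least 10 bases was counted for each, and one that mapped to several places was counted at each, so paralogues and overlapping genes share reads. The deposited values are these raw fragment counts per gene, with 4961934 to 9742624 in total in the EpiSC and ESC samples.

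Groups were taken from the sample labels. A gene entered the test when 3 or more of the 18 samples held 10 or more counts. Tests used edgeR 4.0.16 (R 4.3.3, TMM factors, robust quasi-likelihood fit of the 6 group means, contrast of EpiSC minus ESC), with p-values adjusted by Benjamini-Hochberg over all genes tested. SE is the log2 fold change divided by the square root of the F statistic. Levels used DESeq2 1.42.0 size factors and the gene length given in the files. Where a group had no count, a floor of 3 counts over its libraries gave the bound, and where it had 1 to 3 counts the ratio is given with an exact 95% interval, both of which cover counting error only.

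Named genes were members of the lists, the 15 genes with the highest and lowest log2 fold change among called genes with a mean log2 level above 3 in the higher group and no overlap between groups, the 10 with the largest difference in library-scaled counts in each direction, and Xist and Y-linked genes. One listed gene counted in its list is not reported by name here. Members and lists were chosen with earlier results of these data known. Alternatives were other scaling factors, DESeq2, a test against the fold threshold, other filters on low counts, a fit of the 6 samples alone, a block for replicate number, and each library left out in turn. The chromosome 12 difference was added after the data were seen.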

Additional observations from a re-analysis of the deposited data

How the results depend on the processing

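The number of genes higher in EpiSCs was between 2382 (test against a fold change of 2) and 3596 (no filter on low counts), and the number lower was between 2816 and 4135 under the same 2 settings. Leaving out a single library gave 3022 to 3326 higher and 3510 to 3743 lower, and all these counts were within 1.5 times those reported. DESeq2 called 3211 higher and 3658 lower. Upper-quartile scaling moved the median log2 fold change of all genes from -0.04 to 0.07 and called 3560 higher and 3434 lower, and on that scale Axin2, Ccnd1, Kdr and Uhrf1 passed below the fold or p threshold. Of 2578 values of the 185 named and tested genes under the alternatives, 2546 kept their direction and side of the threshold, 26 lost the call, 6 gained it and none changed direction, and of the losses 11 came with the test against a fold change of 2. The chromosome 12 difference of 0.65 fell to 0.46 with no filter on low counts, where many genes at or near 0 enter the median, and was 0.60 to 0.67 without any single library. The X-linked difference of 0.08 was between 0 (no filter) and 0.16 (filter within the 6 samples). Depth limits the genes with few counts: those under the filter were not tested, and for tested genes at or near 0 in 1 group the fitted log2 fold change depends on the prior count.

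With the replicate number as a block, 3242 genes were higher and 3700 lower, and 6876 of the 6929 calls were shared. Same-numbered samples share only a number in the labels: the correlations of their deviations from the group means were 0.15, 0.14 and -0.06, and EpiSC replicates 2 and 3 correlated best with another number. The block changed no call on a named gene.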

Other observations

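Skeletal muscle genes, listed after their values were seen because Myod1 and Actc1 were among the 15 genes with the highest log2 fold changes, were in part higher in EpiSCs. Myod1, the master regulator of the skeletal muscle lineage, had no count in ESCs and measured 269, 256 and 265 in the EpiSC samples (at least 369-fold higher), with means of 0 in AFSCs and 1.22 in EpiLCs. Actc1, the cardiac alpha-actin gene, measured 483, 501 and 507 in EpiSCs and 0 in every ESC sample (at least 609-fold higher). Both passed the test and were the reason for the list, so no count over it is given. The contractile genes Tnnt1 (25.6 to 639), Tnnc1 (log2 fold change 5.23) and Acta1 (3.98) and the desmin gene Des (4.55) rose, and the titin gene Ttn fell (-3.55). Myog, which follows Myod1 in muscle differentiation, totalled 20 counts in EpiSCs and 0 in ESCs and was not tested, and Myf5 was seen in 1 count.

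Hox genes, the homeobox genes that pattern the body axis, were lower in EpiSCs in 15 of 19 tested cases and higher in 1. Over all tested genes 22% were lower and 19% higher. The median log2 fold change of the list was -6.98, or -4.04 with genes at 0 in 1 group placed at their bound, and 24 of 43 had too few counts for the test. Of the 19 tested, 12 had no count in any EpiSC sample. These 12 passed the filter on counts in other groups and could not be called higher, so their shared direction adds no separate support. Hoxc13 measured 88.8, 87.5 and 89.3 in ESCs and 1.07, 0.716 and 0.388 in EpiSCs (-6.92, SE 0.38), Hoxc12 28.6, 80.2 and 79.0 in ESCs and 0 in EpiSCs (at least 68.9-fold lower), and Hoxb13 was likewise at 0 (at least 54.6-fold lower). The exception was Hoxd1, at 0 in ESCs and 0.705, 4.26 and 2.56 in EpiSCs (at least 3.84-fold higher).

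Reproductive homeobox genes of the X chromosome (Rhox) and PRAME family genes, both lists added after the values were seen, were low in EpiSCs. All 18 tested Rhox genes were lower, beside 22% of all tested genes (median log2 fold change -8.30, or -5.46 at the bounds). The other 16 of the 34 had too few counts for the test. Of the 18 tested, 16 had no count in any EpiSC sample. They passed the filter only on counts in other groups, so their shared direction adds no separate support. Of 8 tested PRAME family genes 6 were lower and none was higher (median -8.76, or -5.63 at the bounds). Of these 8, 7 had no count in any EpiSC sample, so the same limit holds. Both families consist of close copies that share reads, so the values of single members are uncertain.

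Of 59 tested histone genes 44 were higher in EpiSCs and none was lower, beside 19% and 22% of all tested genes. The median log2 fold change was 1.69. Most histone messages lack a poly(A) tail, and the libraries were made from polyadenylated RNA. Histone genes are paralogues and can share reads, so they are not all separate observations.

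A block of 113 predicted or paralogous genes on chromosome 14 (chr14:3030002-7643972, GRCm38) was chosen after the values were seen. All 83 tested members were higher in EpiSCs, with log2 fold changes from 1.30 to 8.01, and they made up 2.58% of all genes called higher. Their summed normalized counts were 1351 to 2544 in ESCs, 19103 to 32896 in EpiSCs, 7460 to 22178 in AFSCs and 4664 to 8179 in EpiLCs. Fragments that mapped to several places were counted at each, so these genes share reads and are not separate observations.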
